A study of Mus musculus with 8 samples.

Results

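Fscn1, Ccl17, Ccl22, Socs2, Traf1, Apol7c, Mreg, Birc3, Cd200 and Il4i1 are genes associated with the mature, migratory state of dendritic cells. They were chosen partly by their high log2 levels in a single array, that of CX3CR1int Ly6Clo cells from colitis colon. A gene was read from its probe set with 1 gene symbol, and where there was more than 1 such probe set the one with the highest mean over the 8 arrays was used. By this rule 9 of the 10 listed genes were measured, among 19938 genes in all. Il4i1, an amino acid oxidase secreted by antigen-presenting cells, shared its probe set with a second symbol and was dropped.

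A dendritic cell that takes up antigen in the gut wall can mature and leave for the draining lymph node. On maturing it induces the chemokine receptor CCR7, extends actin-bundled protrusions, secretes chemokines that attract T cells and switches on targets of NF-kB signalling. Macrophages of the lamina propria, by contrast, largely stay in place, and Ly6Chi monocytes are the blood-borne precursors that enter inflamed tissue.

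The study's title asks what Ly6Chi monocytes become in the inflamed colon. Sorted cells from digested tissue of C57BL/6 mice were profiled on 8 Affymetrix arrays, 1 for each of 8 groups, with values on a log2 scale. Every group carried Cx3cr1gfp/+, in which GFP replaces 1 copy of Cx3cr1, so each group keeps 1 intact copy and none has both copies intact. Colitis was induced with dextran sodium sulphate and cells were taken at day 4. From colitis colon came CX3CR1int Ly6Clo cells, CX3CR1int Ly6Chi cells and CX3CR1hi F4/80hi cells. From steady-state colon came CX3CR1hi F4/80hi cells, CX3CR1hi resident macrophages reconstituted from monocytes, and CX3CR1hi resident macrophages. From spleen came Ly6Chi monocytes in colitis and Ly6Chi monocytes in steady state. CX3CR1int cells of steady-state colon were not analysed here, so Ly6Clo cells have no steady-state counterpart below. The labels used here give no age and do not say whether animals were pooled. They mark as female the resident, the reconstituted and the steady-state splenic samples and as male the other 5.

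Over all probe sets the array medians lay between 5.77 and 5.87, and a gene below its array's median is described as dim. The steady-state splenic array stood apart from its label: the female-specific transcript Xist was at 10.04 there, but the Y-linked genes Eif2s3y, Kdm5d and Uty were at 10.28, 8.38 and 8.46, as in arrays labelled male. Cx3cr1, the gene of the gate, lay between 10.88 and 11.34 in the CX3CR1hi arrays, against 9.95 in the colitis and 10.76 in the steady-state splenic array. In the CX3CR1int arrays it was at 7.51 in Ly6Clo and 7.95 in Ly6Chi cells, below both splenic arrays. Adgre1, which encodes the antigen of the F4/80hi gate, lay between 12.05 and 12.51 in the 4 CX3CR1hi arrays, against 11.53 and 11.46 in the colitis and steady-state splenic arrays. It was at 9.31 in Ly6Clo and 10.75 in colonic Ly6Chi cells. The mean of 8 monocyte markers was 8.16 in the Ly6Clo array, against 11.19 in the colonic Ly6Chi array and 11.78 and 11.74 in the colitis and steady-state splenic arrays. The list was split, with 5 of 8 at or above the median in Ly6Clo cells. Ccr2, Plac8 and S100a4 stood at 11.09, 11.60 and 10.37 there, against 12.32, 12.32 and 10.26 in colonic Ly6Chi cells. Fn1 and F13a1 stood at 9.65 and 7.55, against 12.18 and 11.28. Vcan, Chil3 and Hp were dim in Ly6Clo cells, at 5.64, 4.60 and 4.78, against 11.28, 9.28 and 10.62. The 8 genes that mark conventional dendritic cells averaged 9.60 in the Ly6Clo array, and all 8 were at or above the array median there.

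Promoters of 8 of the 9 genes were found in RefSeq (GRCm38.p6), all but that of Socs2, and those of Ccl17, Ccl22 and Apol7c are shown because the data below set the neighbouring pair Ccl17 and Ccl22 side by side and set Apol7c apart. Each is the 250 bases before the annotated start, written 5′ to 3′ on the gene's strand, with matches to the searched motifs in capitals.
Ccl17 promoter, chr8:94810203-94810452, plus strand: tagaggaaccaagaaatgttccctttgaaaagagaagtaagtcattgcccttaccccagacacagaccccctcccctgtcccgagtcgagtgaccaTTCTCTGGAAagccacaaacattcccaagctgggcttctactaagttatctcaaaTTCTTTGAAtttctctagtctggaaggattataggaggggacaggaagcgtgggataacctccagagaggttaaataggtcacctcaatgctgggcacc
Ccl22 promoter, chr8:94745434-94745683, plus strand: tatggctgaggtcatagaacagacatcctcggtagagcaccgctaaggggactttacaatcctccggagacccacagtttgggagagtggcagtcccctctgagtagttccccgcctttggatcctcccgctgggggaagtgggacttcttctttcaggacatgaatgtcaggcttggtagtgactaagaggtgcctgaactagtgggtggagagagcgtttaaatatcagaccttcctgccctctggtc
Apol7c promoter, chr15:77533316-77533565, minus strand: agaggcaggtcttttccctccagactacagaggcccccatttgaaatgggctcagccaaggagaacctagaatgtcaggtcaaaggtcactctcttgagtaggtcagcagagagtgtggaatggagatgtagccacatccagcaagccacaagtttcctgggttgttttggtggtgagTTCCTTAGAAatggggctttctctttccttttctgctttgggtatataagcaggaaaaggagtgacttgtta

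Both strands of each window were searched for 4 motifs: a kappa B site (GGG, then 2 bases of any kind, then TTTCC), STAT5 (TTCNNNGAA), STAT6 (TTC and GAA with 4 bases of any kind between them) and AP-1 (TGAGTCA). In the window of Ccl17 the STAT6 motif matched at positions -154 to -145 from the start and the STAT5 motif at -99 to -91. In that of Apol7c the STAT6 motif matched at -72 to -63. No other of the 8 windows held any of the motifs, and 0 of 8 held the kappa B or the AP-1 motif. Across 32851 promoter windows of the same length, 7.02% held the STAT5 motif, 5.85% the STAT6 motif, 1.41% the kappa B motif and 4.46% the AP-1 motif. The matches do not overlap each other. A broader NF-kB consensus, added after the kappa B motif had matched none of the genes, was present in 3.9% of windows and in 0 of the 8. These are matches of letters in a short window and describe no binding.

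Of the 9 genes 7 were at their highest in the Ly6Clo array, as 3252 of all 19938 genes were (16.3%). High levels in that array are partly what chose the genes, so these values are a description. Apol7c was highest in steady-state CX3CR1hi F4/80hi cells, and Birc3 was highest in colonic Ly6Chi cells and lowest in Ly6Clo cells. The genes Ccl22, Mreg and Cd200 were at or above the array median in the Ly6Clo array alone. Traf1 and Birc3 were at or above it in all 8 arrays.

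**Figure D1:**
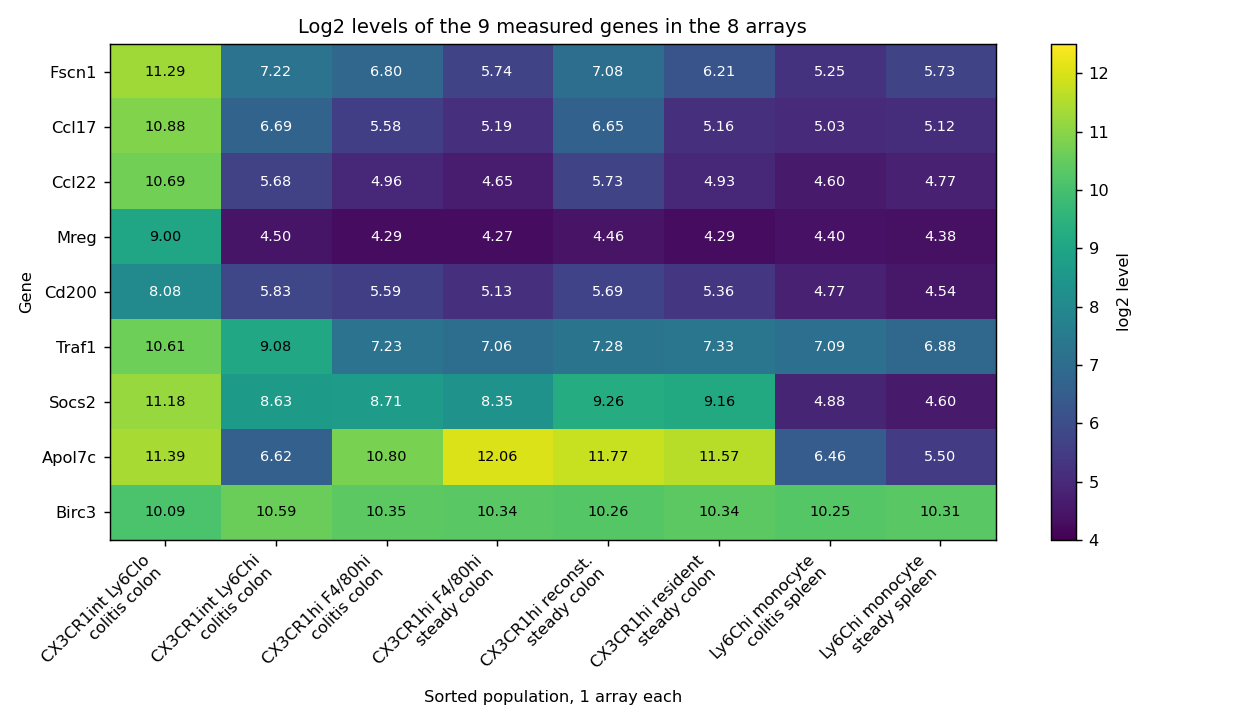
Log2 level of each of the 9 measured genes (rows) in each of the 8 arrays (columns, 1 array per sorted population), with colour running from low (dark) to high (yellow). Fscn1, Ccl17 and Ccl22 reach 11.29, 10.88 and 10.69 in the Ly6Clo column, Apol7c is high in that column and in the 4 CX3CR1hi columns, and Birc3 stays between 10.09 and 10.59.

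The chemokines Ccl17 and Ccl22 are ligands of the receptor CCR4, which is carried by T helper and regulatory T cells. Ccl17 stood at 10.88 in Ly6Clo cells, against 6.69 in colonic Ly6Chi cells and 5.58 in colitis CX3CR1hi cells. In steady-state colon it stood at 5.19 in CX3CR1hi F4/80hi cells, 6.65 in reconstituted macrophages and 5.16 in resident macrophages. In the spleen it was 5.03 in colitis and 5.12 in steady state. Besides the Ly6Clo array, the colonic Ly6Chi and the reconstituted arrays were the ones at or above their medians, and they differed by less than 0.396. That value is the SD over genes of the difference between the steady-state CX3CR1hi F4/80hi and resident arrays, which are of different labelled sex. Ccl17 itself differed by 0.03 in that pair. Ccl22 stood at 10.69 in Ly6Clo cells, against 5.68 in colonic Ly6Chi cells and 4.96 in colitis CX3CR1hi cells. It was at 4.65 in steady-state CX3CR1hi F4/80hi cells, 5.73 in reconstituted macrophages, 4.93 in resident macrophages, 4.60 in colitis spleen and 4.77 in steady-state spleen. The next highest arrays after Ly6Clo were the same pair for both chemokines, in opposite order, but all Ccl22 values outside Ly6Clo cells were dim. Ccr4 itself, with 4.44 in Ly6Clo cells, was dim in all 8 arrays.

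Ccl22 and Ccl17 lie close together on chromosome 8 with Cx3cl1, which encodes fractalkine, the ligand of CX3CR1, between them in RefSeq (GRCm38.p6). Cx3cl1 was picked out after its values were seen. It read 6.40 in Ly6Clo cells, against 5.94 in colonic Ly6Chi and 6.66 in colitis CX3CR1hi cells. Its highest values were 7.58 in resident and 7.10 in reconstituted macrophages, so the gene between the pair was not highest where they were.

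Fscn1 and Mreg act on cell shape and organelle movement. Fscn1 encodes fascin, which bundles actin filaments in the dendrites of mature dendritic cells. Its level was 11.29 in Ly6Clo cells, against 7.22 in colonic Ly6Chi cells, 6.80 in colitis CX3CR1hi cells, 5.74 in steady-state CX3CR1hi F4/80hi cells, 7.08 in reconstituted and 6.21 in resident macrophages. The splenic arrays read 5.25 in colitis and 5.73 in steady state. The Ly6Chi and reconstituted arrays differed by less than 0.396, as did the steady-state CX3CR1hi F4/80hi and the steady-state splenic array. In the pair that gave this SD, steady-state CX3CR1hi F4/80hi minus resident, Fscn1 itself differed by more, at -0.47. Mreg encodes melanoregulin, which in pigment cells of mice takes part in moving melanosomes. It stood at 9.0 in Ly6Clo cells and between 4.27 and 4.50 in the other 7 arrays, all dim. Outside Ly6Clo cells the arrays spanned 0.23 for Mreg and 1.97 for Fscn1.

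Cd200 encodes a surface glycoprotein that restrains myeloid cells through the receptor CD200R1. Its level was 8.08 in Ly6Clo cells, against 5.83 in colonic Ly6Chi and 5.59 in colitis CX3CR1hi cells. The reconstituted array read 5.69, the resident array 5.36, the steady-state CX3CR1hi F4/80hi array 5.13, the colitis splenic array 4.77 and the steady-state splenic array 4.54. Those 7 values were all dim. The gene for the receptor, Cd200r1, was at 7.54 in Ly6Clo cells, against 7.33 in colonic Ly6Chi cells, and at or above the median in all 8 arrays.

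Traf1, Birc3 and Socs2 act inside the cell on receptor signals. Traf1 encodes an adaptor of the TNF receptor family that NF-kB induces. It measured 10.61 in Ly6Clo cells, against 9.08 in colonic Ly6Chi cells and 7.23 in colitis CX3CR1hi cells. The other colonic arrays read 7.06 in steady-state CX3CR1hi F4/80hi cells, 7.28 in reconstituted and 7.33 in resident macrophages, and the splenic arrays 7.09 in colitis and 6.88 in steady state. Both CX3CR1int arrays thus lay above the 6 others, which spanned less than 0.5. Birc3 encodes a ubiquitin ligase that joins TRAF proteins at TNF receptors and restrains cell death. It was at 10.09 in Ly6Clo cells, against 10.59 in colonic Ly6Chi cells, and between 10.25 and 10.35 in the 6 others. Of all 9 genes Birc3 moved least over the 8 arrays, with a range of 0.50.

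Socs2 encodes a suppressor of cytokine signalling that is induced through STAT5 and feeds back on receptors. Its level was 11.18 in Ly6Clo cells, against 8.63 in colonic Ly6Chi cells, 8.71 in colitis CX3CR1hi cells and 8.35 in steady-state CX3CR1hi F4/80hi cells. Reconstituted macrophages read 9.26 and resident macrophages 9.16, while splenic monocytes read 4.88 in colitis and 4.60 in steady state. All 6 colonic arrays were above both splenic arrays. The second probe set of Socs2 was dimmer, at 7.33 in Ly6Clo cells, against 5.52 in colonic Ly6Chi cells. Both probe sets were higher in Ly6Clo cells, but they disagreed most over spleen: the mean of the 4 CX3CR1hi arrays exceeded the mean of the splenic arrays by 4.13 on the probe set used and by 0.42 on the other.

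Apol7c belongs to the apolipoprotein L family of intracellular lipid-binding proteins. It measured 11.39 in Ly6Clo cells, against 6.62 in colonic Ly6Chi cells and 10.80 in colitis CX3CR1hi cells. In steady state it read 12.06 in CX3CR1hi F4/80hi cells, 11.77 in reconstituted macrophages and 11.57 in resident macrophages. Splenic monocytes had 6.46 in colitis and 5.50 in steady state. For Apol7c 3 arrays lay above the Ly6Clo array, which was within the span of the CX3CR1hi arrays, whereas both colonic and splenic Ly6Chi arrays lay more than 4 below it. Of the 11 other listed genes of the family 6 were measured. Among these Apol10b read 6.34 in Ly6Clo cells, its highest value, 6.26 in reconstituted macrophages and 4.96 in colonic Ly6Chi cells. Apol10a read 7.20 in Ly6Clo cells, against 7.38 in colonic Ly6Chi cells.

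Between single arrays a gene was compared where the brighter array was at or above its median, and a log2 difference of 1 is 2-fold. There is no replicate and no test for these differences. Ly6Clo cells exceeded colonic Ly6Chi cells at least 2-fold in 8 of the 9 genes, against 6.46% of 10132 genes. The differences were 5.01 for Ccl22, 4.78 for Apol7c, 4.50 for Mreg, 4.19 for Ccl17, 4.06 for Fscn1, 2.54 for Socs2, 2.25 for Cd200 and 1.53 for Traf1, and Birc3 was lower by 0.50. Against colitis CX3CR1hi cells 7 of 9 were at least 2-fold higher in Ly6Clo cells, against 7.27% of 10396 genes. The largest of these differences was again that of Ccl22, at 5.73, and the exceptions were Apol7c at 0.59 and Birc3 at -0.26. Against colitis splenic monocytes 8 of 9 were at least 2-fold higher, against 13.2% of 10197 genes. Ccl22, Mreg and Cd200 entered all 3 comparisons only through the Ly6Clo array, Ccl17 also did so against CX3CR1hi and splenic cells, and Fscn1 and Socs2 against splenic cells. No member was at least 2-fold lower in Ly6Clo cells in any of the 3 comparisons, against 5.51%, 11.8% and 9.32% of all genes compared with Ly6Chi, CX3CR1hi and splenic cells in that order. High levels in the Ly6Clo array partly chose the genes, so nothing is read from the counts of higher or of lower genes.

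**Figure D2:**
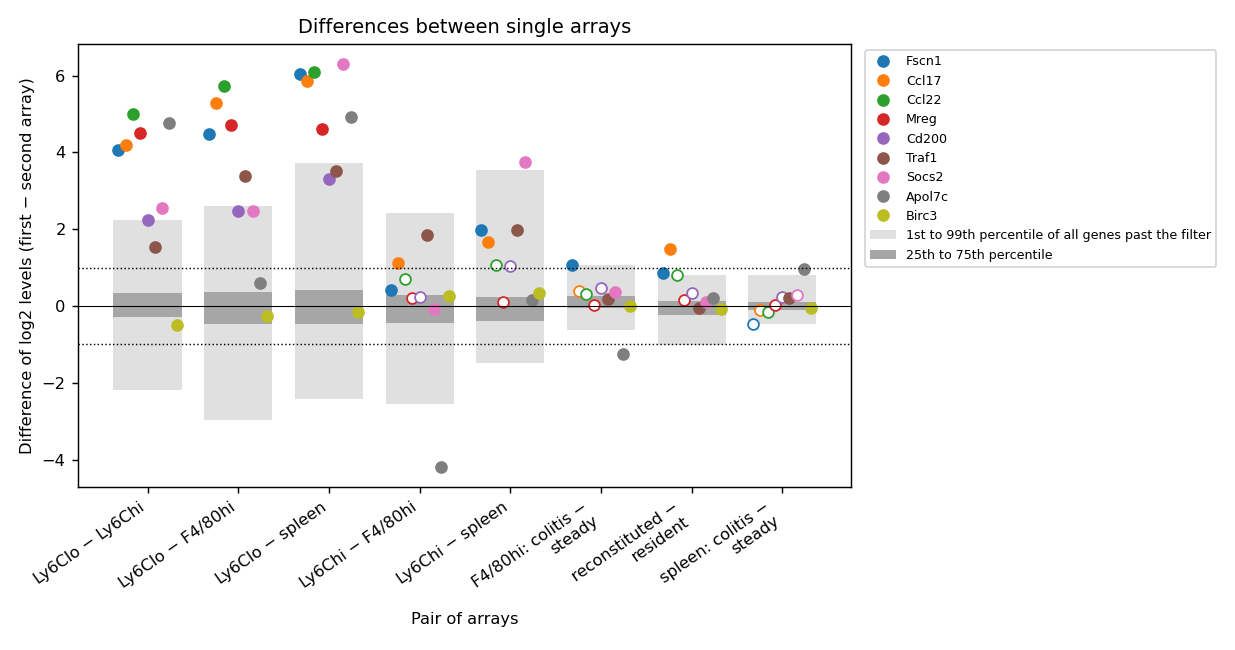
Difference of log2 levels between pairs of single arrays for the 9 genes (coloured points, open where the gene was dim in both arrays), over the spread of all genes compared (grey bars), with dotted lines at 2-fold. In the 3 leftmost pairs Ccl22 lies between 5.01 and 6.08, and for Ly6Chi − F4/80hi Apol7c lies at -4.18.

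Colonic Ly6Chi cells give comparisons that leave the Ly6Clo array out. Against colitis CX3CR1hi cells 6 of the 9 genes could be compared. Of these 2 were at least 2-fold higher, Traf1 by 1.84 and Ccl17 by 1.11, against 5.33% of 10308 genes. Apol7c alone was lower, at -4.18, against 9.07% of all genes. Against colitis splenic monocytes 6 genes could be compared and 4 were at least 2-fold higher, against 9.79% of 10083 genes. These were Socs2 at 3.76, Traf1 at 1.98, Fscn1 at 1.97 and Ccl17 at 1.67. Socs2, Fscn1 and Ccl17 were dim in the colitis splenic array and entered only through the Ly6Chi array, as Ccl17 did against CX3CR1hi cells, and Ccl22, Mreg and Cd200 were dim in both arrays and left out. Nothing about the set is read from these counts. With the steady-state splenic array in place of the colitis one, the difference for Fscn1 was 1.495. None was 2-fold lower, against 3.95%. Apol7c, which separated Ly6Chi from CX3CR1hi cells, differed by 0.15 between colonic and splenic Ly6Chi cells of colitis.

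Levels in arrays that did not choose the genes were tested between the 4 CX3CR1hi arrays and the 2 splenic arrays with limma, on 10564 genes at or above the median in at least 2 of the 6 arrays. Of the 9 genes Ccl17, Ccl22, Mreg and Cd200 did not meet that filter. Of the 5 tested, Socs2 and Apol7c were higher in CX3CR1hi cells and none was lower, against 60.3% of all genes tested in either direction, 26.2% higher and 34.1% lower. Arrays of 1 population served as replicates here although they differed in colitis, origin and labelled sex.

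Socs2 averaged 8.87 ± 0.42 in CX3CR1hi cells (SD, n = 4), against 4.74 in splenic monocytes (n = 2). The limma difference was 4.13 with a standard error of 0.26, and the Benjamini-Hochberg adjusted p was 2.63e-05. Its lowest CX3CR1hi array, at 8.35, was above its highest splenic array, at 4.88. Apol7c averaged 11.55 ± 0.54 (SD, n = 4), against 5.98 in splenic monocytes (n = 2), a limma difference of 5.57 with a standard error of 0.39 and an adjusted p of 3.75e-05. Its groups did not overlap either, with 10.80 the lowest CX3CR1hi value and 6.46 the highest splenic one. Without the steady-state splenic array, whose sex-linked genes went against its label, the limma differences were 3.99 for Socs2 and 5.09 for Apol7c, with adjusted p of 0.000724 and 0.000653. A test that permuted the labels of 4 against 2 arrays could not go below p = 0.0667 (exact, 1-sided). The probe set of Socs2 that was not used showed a difference of 0.42, and with the mean of both the limma difference was 2.28 (adjusted p 7.13e-05).

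Fscn1 averaged 6.46 ± 0.60 in CX3CR1hi cells (SD, n = 4), against 5.49 in splenic monocytes (n = 2). The limma difference was 0.97, with a 95% interval of 0.10 to 1.83 and an adjusted p of 0.0545, so it missed the threshold of 0.05. It was 1.20 with an adjusted p of 0.014 when the steady-state CX3CR1hi F4/80hi array was left out, and 0.97 with an adjusted p of 0.0473 when labelled sex was a block. Traf1 differed by 0.24 (95% interval -0.05 to 0.53, limma adjusted p 0.125), and by 0.29 with an adjusted p of 0.0482 after repeated quantile normalization. For Birc3 the difference was 0.04 with an interval of -0.18 to 0.26 (limma adjusted p 0.723). When no filter was set, Cd200 was higher in CX3CR1hi cells by 0.79 (limma adjusted p 0.0106), all 6 values being dim. Ccl17, Ccl22 and Mreg did not pass at 0.57, 0.38 and -0.06 (limma adjusted p 0.339, 0.342 and 0.62).

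**Figure D3:**
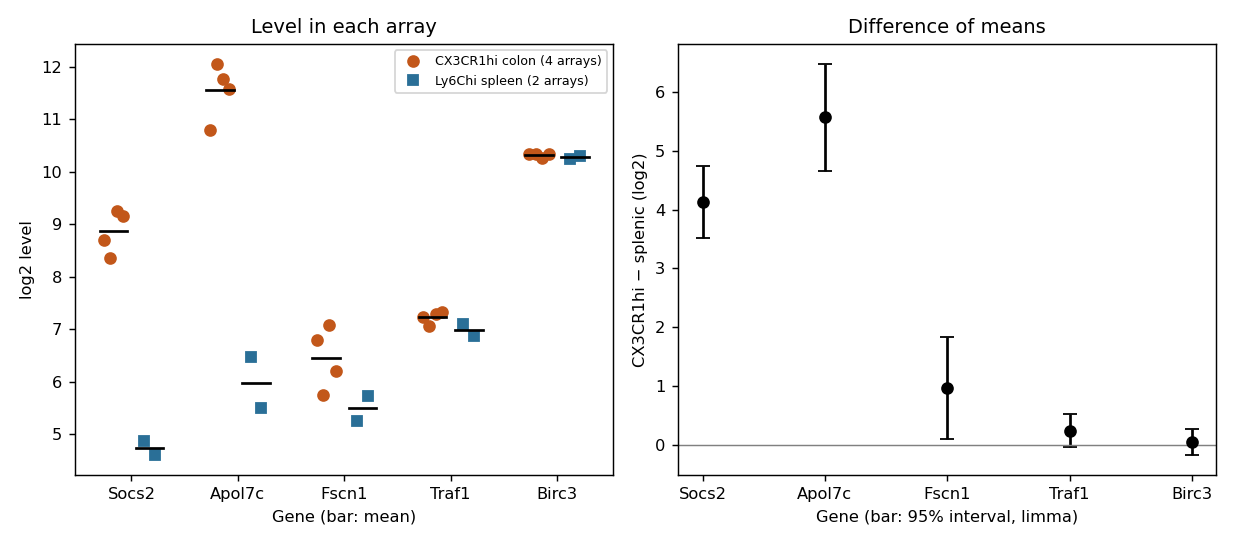
Left, log2 level of the 5 tested genes in the 4 CX3CR1hi colonic arrays (circles) and the 2 splenic arrays (squares), with bars at the means; right, the difference of the means with its 95% interval from limma. Socs2 and Apol7c lie at 4.13 and 5.57, and the interval of Birc3 spans -0.18 to 0.26.

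Genes of gut epithelium and of other tissue cells moved with the contrast between colon and spleen. The mean of 11 epithelial markers was 11.20 to 12.00 in the CX3CR1hi arrays, where all 11 were at or above the median, against 6.18 in colitis and 5.03 in steady-state splenic monocytes, where 6 and 0 were. In colonic Ly6Chi cells the list stood at 10.10 with all 11 at or above the median, while Apol7c was at 6.62. Socs2 was at 8.63 in that array, and the part of epithelial RNA in its level was not tested. Plasma cell markers averaged 8.15 to 8.91 in CX3CR1hi cells, with 4 or 5 of 6 at or above the median, against 6.75 in colitis and 6.42 in steady-state splenic monocytes, with 4 of 6 in each. Endothelial markers averaged 6.88 to 7.11 in CX3CR1hi cells, with 4 or 5 of 6 at or above the median, against 5.57 in colitis and 5.58 in steady-state splenic monocytes, with 1 of 6 in each. Stroma markers averaged 6.31 to 7.83 in CX3CR1hi cells, with 4 to 7 of 7 at or above the median, against 5.46 in both splenic arrays, with 2 of 7 in each. The part of these cells in the levels of Socs2 and Apol7c was not tested. In bulk samples of sorted cells, fewer cells of a type and less RNA per cell cannot be told apart.

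Colitis was asked about within each population. Colitis CX3CR1hi F4/80hi cells were compared with the same gate in steady state: of 5 genes compared 1 was at least 2-fold higher, Fscn1 at 1.06, against 1.23% of 10269 genes. Apol7c was lower, at -1.26, against 0.243% of all genes. Fscn1 was dim in the steady-state array and entered only through the colitis array. The mean of stroma markers was 7.83 in colitis and 6.83 in steady state, with 7 and 6 of 7 at or above the median. Of these 4 of 7 were at least 2-fold higher in colitis. So were 2 of 5 monocyte, 1 of 4 conventional dendritic cell, 1 of 3 neutrophil, 1 of 11 macrophage and 1 of 5 endothelial markers compared, and none was 2-fold lower. In reconstituted macrophages the stroma mean was 6.31 with Fscn1 at 7.08, and in resident macrophages 7.05 with Fscn1 at 6.21. The part of any of these cells in the level of Fscn1 was not tested. The median of all genes in this pair was 0.10, and Fscn1 fell short of 2-fold once arrays were centred or normalized again. Set against the resident array instead, these differences were 0.59 for Fscn1 and -0.77 for Apol7c, and with the reconstituted array Fscn1 stood at -0.28. In colitis splenic monocytes against steady-state splenic monocytes no gene of the 3 compared reached 2-fold in either direction, against 0.686% of 9469 genes higher and 0.0211% lower. There Apol7c differed by 0.96, at 6.46 in colitis and 5.50 in steady state. The epithelial markers averaged 6.18 in colitis and 5.03 in steady-state splenic monocytes. In the same order B cell markers averaged 6.76 and 6.07, and macrophage markers 9.13 and 8.76. The part of these cells in the level of Apol7c was not tested.

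In a limma fit of colitis against steady state with population as a covariate, no member passed the test. Apol7c differed by -0.22 (95% interval -1.23 to 0.79), Fscn1 by 0.08 (-0.89 to 1.05), Traf1 by 0.09 (-0.23 to 0.41), Socs2 by -0.02 (-0.72 to 0.68) and Birc3 by 0.00 (-0.27 to 0.26). With limma 0 of all 10564 genes were called (0%), 306 had an unadjusted p under 0.05, and the smallest adjusted p was 0.991. A fit with an interaction, added after the values were seen, set the colitis difference of CX3CR1hi cells against that of splenic monocytes. It gave -1.96 for Apol7c with a standard error of 0.37, an unadjusted p of 0.00267 and a limma adjusted p of 0.9998, on 2 residual degrees of freedom. The intervals of the 5 genes reach past 2-fold for Fscn1 and Apol7c and stay within it for Socs2, Traf1 and Birc3.

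Reconstituted macrophages differed most from resident macrophages in Ccl17. Of 6 genes compared, 1 was at least 2-fold higher, Ccl17 at 1.49, against 0.675% of 10374 genes, and none was lower, against 1.09%. Ccl17 was dim in resident macrophages and entered only through the reconstituted array, so the count is no support for a difference. Fscn1 was higher by 0.87, while Ccl22 and Cd200 were dim in both arrays, with differences of 0.80 and 0.34. Against steady-state CX3CR1hi F4/80hi cells, which are of the other labelled sex, reconstituted macrophages were higher for Ccl17 by 1.46 and for Fscn1 by 1.34. The 8 dendritic cell markers averaged 6.00 in reconstituted and 6.14 in resident macrophages, with a median difference of 0.12. Of 4 compared, 1 was at least 2-fold lower, Cd209a at -2.40, and none was higher, against 1.09% and 0.675% of all genes. The part of dendritic cells in the Ccl17 and Fscn1 values was not tested. Ccr7 was at 6.52 in reconstituted and 6.33 in resident macrophages. Of 39 genes compared from the list of other mature dendritic cell genes below, 1 was at least 2-fold higher, Cst7 at 2.16, and 2 were lower. Of 5 monocyte markers compared 1 was higher, S100a4 at 1.60, and none was lower. Both Cst7 and S100a4 were dim in resident macrophages and entered only through the reconstituted array. The shares of all genes were 0.675% higher and 1.09% lower. Neutrophil markers averaged 6.28 in reconstituted and 5.53 in resident macrophages, with 3 and 2 of 8 at or above the median. Mmp9 carried most of that, with a difference of 5.00, while Retnlg differed by 1.07 and Ly6g by -0.98. The median difference of all 8 was 0.25. The part of neutrophils or monocytes in the Ccl17 and Fscn1 values was not tested.

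Other genes of dendritic cell maturation were taken from a list of 50, of which 49 were measured. Of these 49, 32 were highest in the Ly6Clo array, against 16.3% of all genes. At least 2-fold higher in Ly6Clo than in colonic Ly6Chi cells were 15 of 45, and 1 was lower, against 6.46% and 5.51% of all genes. Their median difference was 0.72, against 0.01 for all genes. Among those higher, Il12b, Nudt17, Slco5a1, Tnfrsf4, H2-M2 and Aldh1a2 were dim in Ly6Chi cells and entered only through the Ly6Clo array. The list was chosen with earlier results of these data known, so these counts are a description. Ccr7, the receptor that leads dendritic cells to lymph nodes, was at 11.66 in Ly6Clo cells, against 9.21 in colonic Ly6Chi cells, and between 6.25 and 6.69 in the 6 others. Colonic Ly6Chi cells thus held the second highest level for Ccr7 as for Traf1. Serpinb6b and Serpinb9, which encode intracellular protease inhibitors, were higher in Ly6Clo than in colonic Ly6Chi cells by 4.04 and 3.26, Nudt17 by 3.52 and Il12b, the p40 subunit of IL-12 and IL-23, by 3.05. The gene that was lower, named after its values were seen, was Il15 at -1.36, a cytokine that sustains memory T cells and NK cells. Relb and Cd40, an NF-kB subunit and a receptor that drives maturation, differed by 0.77 and 0.31.

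Against colitis CX3CR1hi cells 21 of 44 such genes were at least 2-fold higher in Ly6Clo cells and 3 were lower, against 7.27% and 11.8% of all genes. Those 3 were H2-M2 at -3.97, Il15 at -1.25 and Zmynd15 at -1.20. Among those higher, Nudt17, Slco5a1, Tnfrsf4, Tnfrsf9, Aldh1a2 and Cst7 were dim in colitis CX3CR1hi cells and entered only through the Ly6Clo array. H2-M2, a non-classical MHC class I gene, read 6.91 in Ly6Clo cells, against 10.89 in colitis CX3CR1hi cells and 4.67 in colonic Ly6Chi cells. In CX3CR1hi cells against splenic monocytes the list had 23 genes higher and 7 lower of 39 tested, against 26.2% and 34.1% of all genes, with 9 not passing. H2-M2 was higher by 5.63 (limma adjusted p 1.09e-06) and Zmynd15 by 4.63 (limma adjusted p 2.32e-06). H2-M2 and Zmynd15 thus shared with Apol7c a high level in CX3CR1hi cells. Ccr7 differed by -0.08 in the same test (limma adjusted p 0.646).

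**Figure D4:**
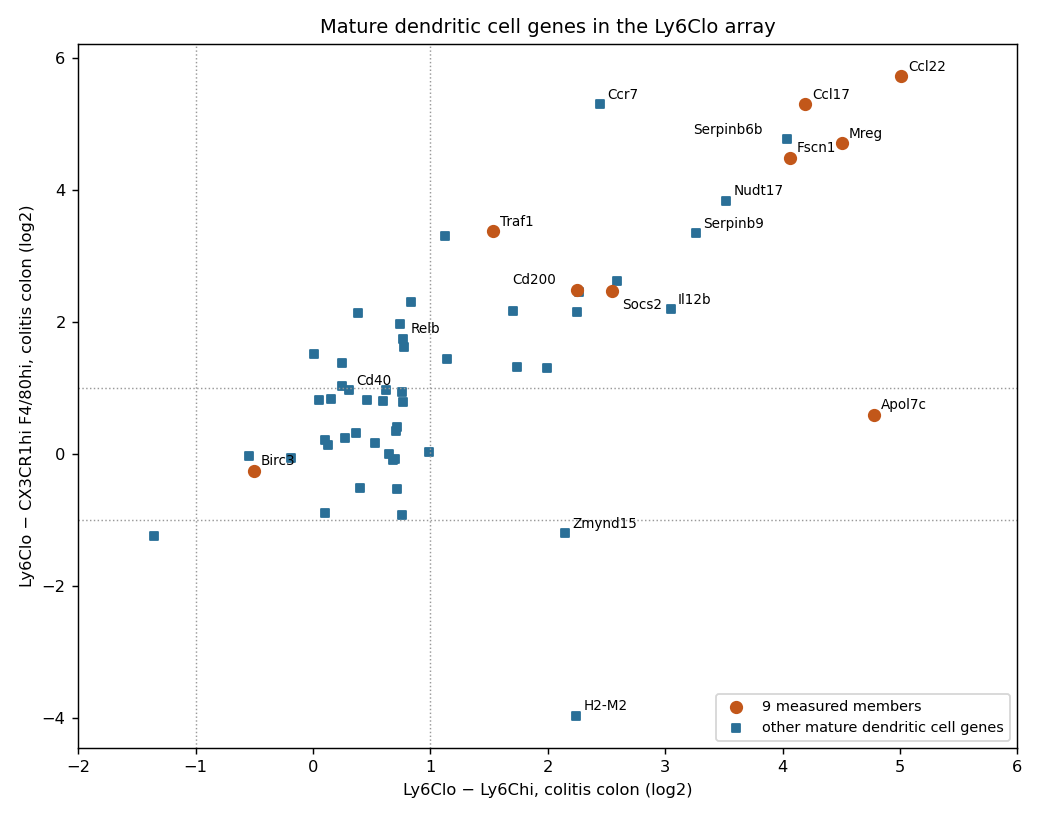
Difference of log2 levels of the Ly6Clo array from the colonic Ly6Chi array (x axis) and from the colitis CX3CR1hi F4/80hi array (y axis) for the 9 genes (circles) and the other mature dendritic cell genes (squares), with dotted lines at 2-fold. Ccl22 lies furthest to the upper right at 5.01 and 5.73, Birc3 lies near the origin, and H2-M2 lies at 2.24 and -3.97.

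Conventional dendritic cell identity genes stood with the members in the Ly6Clo array. Of 23 measured, 18 were at least 2-fold higher in Ly6Clo than in colonic Ly6Chi cells and none was lower, against 6.46% and 5.51% of all genes, with a median of 1.57. Among those higher, Zbtb46, Itgae and Cd226 were dim in colonic Ly6Chi cells and entered only through the Ly6Clo array. In all, 20 of 23 were highest in the Ly6Clo array, against 16.3% of all genes. This list too was chosen with earlier results known, so its counts are a description. Flt3, the receptor for the growth factor of dendritic cells, was at 11.16 in Ly6Clo cells, against 9.03 in colonic Ly6Chi cells and 5.14 in colitis CX3CR1hi cells. Zbtb46, a transcription factor of conventional dendritic cells, was at 6.86 in Ly6Clo cells and between 4.38 and 4.67 in the 7 others, all dim. Itgae, which encodes the integrin CD103, was higher in Ly6Clo than in Ly6Chi cells by 3.83, Kit by 3.31, Clec9a by 2.84 and Mgl2 by 2.57. Itgax, which encodes CD11c, was at 11.90 in Ly6Clo cells, against 10.01 in colonic Ly6Chi and 11.46 in colitis CX3CR1hi cells. In the test of CX3CR1hi cells against splenic monocytes 6 of 19 rose, 6 fell and 7 did not pass, against 26.2% and 34.1% of all genes. Mgl2 differed by 4.61 and Btla by -3.56 there (limma adjusted p 2.5e-06 and 3.47e-06).

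Markers of other cell types in the Ly6Clo array were read beside the members. The 8 conventional dendritic cell markers averaged 9.60 in Ly6Clo cells, against 7.62 in colonic Ly6Chi cells, 6.00 to 6.40 in CX3CR1hi cells and 7.11 in both splenic arrays. All 8 are also among the 23 identity genes above, so they are no separate evidence. Of the 8, 7 were at least 2-fold higher in Ly6Clo than in colonic Ly6Chi cells, against 6.46% of all genes. Macrophage markers averaged 9.0 in Ly6Clo cells, against 9.56 in colonic Ly6Chi cells and 11.24 to 11.72 in CX3CR1hi cells. T cell markers averaged 5.31 in Ly6Clo cells with 0 of 6 at or above the median, and B cell markers 5.70 with 2 of 6. Epithelial markers averaged 9.997 in Ly6Clo cells, against 10.10 in colonic Ly6Chi cells. In the Ly6Clo array the dendritic cell markers were thus highest together with Fscn1, Ccl17, Ccl22, Mreg and Cd200, whereas their mean was lower in CX3CR1hi than in splenic arrays. Their part in the levels of those genes was not tested.

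**Figure D5:**
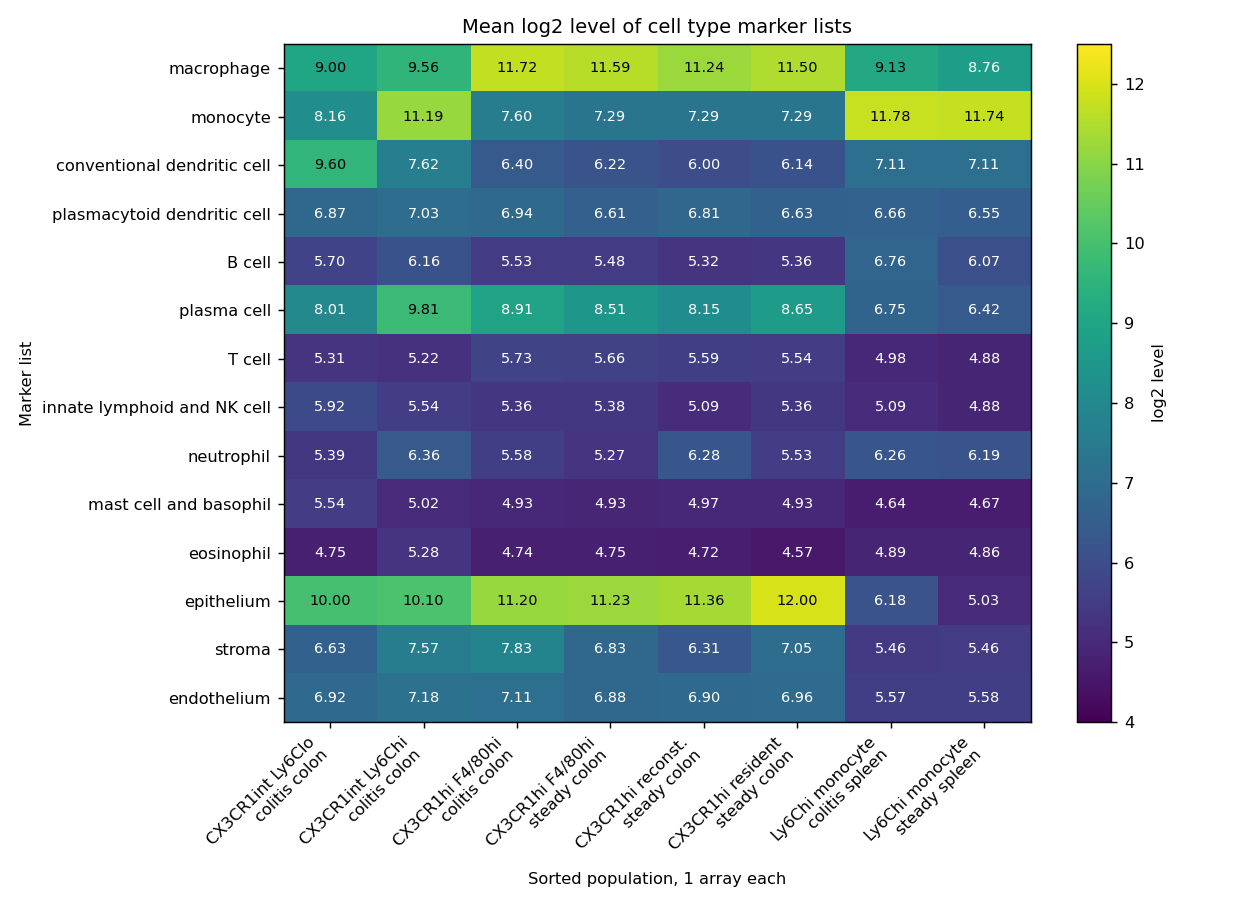
Mean log2 level of 14 lists of cell type markers (rows) in the 8 arrays (columns, 1 array per sorted population). The conventional dendritic cell row is at 9.60 in the Ly6Clo column and at 7.62 or below elsewhere, and the epithelium row falls to 6.18 and 5.03 in the 2 splenic columns.

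The signalling partners of Traf1 and Birc3 were read from 21 genes of the NF-kB pathway. Of these 1 was at least 2-fold higher in Ly6Clo than in colonic Ly6Chi cells, the lymphotoxin gene Ltb at 1.25, and 1 was lower, the NF-kB inhibitor Tnip1 at -1.03, against 6.46% and 5.51% of all genes. Against colitis CX3CR1hi cells 7 of 21 were at least 2-fold higher in Ly6Clo cells and 1 was lower, against 7.27% and 11.8% of all genes, and against colitis splenic monocytes 5 were higher and 2 lower, against 13.2% and 9.32%. The median difference from colitis CX3CR1hi cells was 0.76, against -0.01 for all genes. Ltb was dim outside the Ly6Clo array and entered these comparisons only through it. Traf2 was at 8.70 in Ly6Clo cells, against 8.23 in colonic Ly6Chi cells, and Birc2, the close relative of Birc3, at 9.37 in Ly6Clo cells, against 8.55 in colonic Ly6Chi cells. Birc2 and Birc3 thus differed in sign between these arrays, by 0.82 and -0.50. Between CX3CR1hi cells and splenic monocytes 5 of 20 pathway genes rose, 9 fell and 6 did not pass, against 26.2% and 34.1% of all genes. Tnfaip3, which encodes the NF-kB feedback inhibitor A20, was higher by 2.31 and the TNF receptor Tnfrsf1b differed by -1.48 (limma adjusted p 1.91e-05 and 2.97e-05).

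Among 12 compared genes of cytokine signalling around Socs2 and the chemokines, Irf4 was higher in Ly6Clo than in colonic Ly6Chi cells by 1.35. Socs3 stood at -1.21, and the other 10 were within 2-fold. That is 1 higher and 1 lower of 12, against 6.46% and 5.51% of all genes. Socs3, a suppressor induced mainly through STAT3, was at 9.85 in Ly6Clo cells, against 11.06 in colonic Ly6Chi cells, the opposite order to Socs2. Cish, another STAT5 target, was at 8.36 in Ly6Clo cells, against 7.86 in colonic Ly6Chi cells, and Socs1 was dim in all 8 arrays. Between CX3CR1hi cells and splenic monocytes 4 of 12 rose, 5 fell and 3 did not pass, against 26.2% and 34.1% of all genes. Cish was higher by 1.43 and Stat5a differed by -1.23 (limma adjusted p 0.00029 and 5.68e-05), so Cish and Socs2 were both higher in CX3CR1hi cells while Stat5a was lower. None of the 8 compared partners of Fscn1 and Mreg in the cytoskeleton and vesicle transport differed 2-fold between Ly6Clo and colonic Ly6Chi cells. Of all genes 6.46% were higher and 5.51% lower. Marcksl1 at 0.71 showed the largest difference of the 8. In CX3CR1hi cells against splenic monocytes 4 of 8 rose and 2 fell, against 26.2% and 34.1% of all genes, with Mlph, a melanosome motor adaptor, at 1.73 and Rab27a at -2.21 (limma adjusted p 0.000286 and 1.67e-05).

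The mean profile of the 9 genes, each centred on its own mean, was 3.10 in Ly6Clo cells and -0.05 in colonic Ly6Chi cells. It was between -0.28 and 0.32 in the CX3CR1hi arrays, -1.39 in colitis spleen and -1.49 in steady-state spleen. Among 2078 genes with a range of at least 2 the closest profiles by Pearson correlation over the 8 arrays were those of Pmvk (0.989), Kit (0.988), Cep55 (0.987), Serpinb9 (0.977) and Shcbp1 (0.973). Ska3, Plk4, Kif4, Procr and Mfsd2a followed at 0.968 to 0.971. Cep55, Shcbp1, Ska3, Plk4 and Kif4 are known for roles in cell division, and Kit and Serpinb9 belong to the lists above. The arrays share 1 normalization, and the Ly6Clo array carries most of the range: without it 2 of the 10 genes stayed among the first 10, and by Spearman correlation over 8 arrays 1 did. The ranking is a description of these arrays.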

How the data were processed

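Column-purified total RNA was biotin labelled for Affymetrix arrays, per the labels' protocols. The deposited log2 values, 3.37 to 14.31, were made by the authors with RMA and Partek, per the submitters' processing notes. RMA corrects background, quantile normalizes and summarises probes. The sources used here give no version, setting or genome build. The table held 35399 probe sets: 21789 carried 1 symbol in the platform annotation, 1621 several, and 11989 were unnamed. The number of arrays limits the precision. The 9 measured genes matched RefSeq by Entrez identifier and symbol.

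Groups came from the labels, with 1 array each. Single arrays were compared without a test. Population tests ran lmFit and eBayes of limma (version 3.58.1, under R version 4.3.3) with Benjamini-Hochberg adjustment at 0.05, with 4 residual degrees of freedom for CX3CR1hi against splenic arrays and 3 for colitis. The fits left out the Ly6Clo array, which chose the genes, and the colonic Ly6Chi array, and were tested on simulated data. Since nothing in the labels says that arrays came from separate animals, p-values measure the spread between these arrays. Named genes were all members, per list up to 4 genes furthest apart between Ly6Clo and Ly6Chi cells, up to 2 with the largest absolute t, the 10 most alike genes, and set partners and identity genes. The most alike exclude predicted genes, small RNAs, antigen receptor segments and olfactory or vomeronasal receptors. Members and lists were chosen with earlier results of these data known. Alternatives were other filters, probe set means, scaling, thresholds, comparison arrays, sex and condition terms, and leaving out each array. Other steps ran on pandas 2.3.3, numpy 2.4.6, matplotlib 3.10.9 and scipy 1.17.1 under Python 3.11.15.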

Additional observations from a re-analysis of the deposited data

Results flagged for a closer look

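Among the 4 CX3CR1hi arrays the level of Mreg in reconstituted macrophages, 4.46, lay apart from the other 3, which spanned 4.27 to 4.29. The gap was 0.865 of the range, above Dixon's 95% critical value for 4 samples. All 4 values were dim. Birc3 in reconstituted macrophages, at 10.26, lay below the other 3, which spanned 10.34 to 10.35, with a gap of 0.87 of the range. Chance flags about 1 in 20 such groups, and 9 genes were looked at.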

How the results depend on the processing

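The members at least 2-fold apart in the 3 comparisons with the Ly6Clo array stayed within 1.5 times their counts under every alternative run. With the filter at the 75th percentile the members higher numbered 1 in colonic Ly6Chi against CX3CR1hi cells (2 otherwise), 2 in colonic against splenic Ly6Chi cells (4 otherwise), 0 in colitis against steady-state CX3CR1hi F4/80hi cells (1 otherwise) and 0 in reconstituted against resident macrophages (1 otherwise). The steady-state comparison of colitis CX3CR1hi cells also gave 0 higher after centring, after repeated quantile normalization and against the resident or the reconstituted array, 0 lower against the resident array, and -0.28 for Fscn1 against the reconstituted array. Reconstituted macrophages had 2 higher at 1.5-fold and 2 against CX3CR1hi F4/80hi cells, and colitis spleen had 1 higher at 1.5-fold. Genes called between CX3CR1hi and splenic arrays numbered 6375, 3957 with the filter at the 75th percentile, 2647 with a 2-fold minimum, and 4029 to 6333 with 1 array left out, 4029 without the steady-state and 4199 without the colitis splenic array. Socs2 and Apol7c passed in each. For colitis against steady state leaving out 1 array gave 0 to 3 genes, 3 without the colitis CX3CR1hi array. The members' differences there ranged from -0.48 to 0.45 for Fscn1, -0.21 to 0.28 for Socs2, -1.0 to 0.96 for Apol7c and -0.058 to 0.033 for Birc3. Socs2 stood at 0.58 with labelled sex as a block, in which the steady-state splenic array counted as female against its Y-linked genes. Of the 10 most alike genes 1 stayed by Spearman correlation and 2 without the Ly6Clo array. The cause of these shifts was not tested. No paired analysis was possible because each group has 1 array and the labels number no replicates. One array per group limits what single-array differences can show, and dim genes carry little signal over background.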
